A study of Mus musculus with 13 samples.

Results

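The data were 13 RNA-seq libraries of freshly sorted thymocytes from C57BL/6 mice of 6 weeks of age, and the question was whether the step from the DN3 to the DN4 stage differed between genotypes. Every library of the series entered, 13 of 13, since the comparison needs all 4 groups. There were 3 DN3 libraries and 3 DN4 libraries from Opa1fl/fl;Lck-Cre+ mice (KO45, KO49 and KO51), and 3 DN3 and 4 DN4 libraries from WT;Lck-Cre+ mice (WT05, WT46 and WT48 at both stages, WT40 at DN4 only). All mice carried Lck-Cre, a recombinase driven in thymocytes by the Lck promoter. DN3 cells were sorted as CD44low CD25high and DN4 cells as CD44low CD25low. The stage change of a gene is its DN4 level minus its DN3 level on the log2 scale, and the interaction is the stage change in the Opa1fl/fl;Lck-Cre+ mice minus that in the WT;Lck-Cre+ mice. An interaction below 0 therefore means a smaller rise or a larger fall in the Opa1fl/fl;Lck-Cre+ mice.

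At DN3, a thymocyte rearranges its T cell receptor beta locus with the Rag recombinase while NOTCH signalling maintains the early T cell programme. A productive chain pairs with pre-T alpha (Ptcra) into the pre-TCR, whose signal ends CD25 (Il2ra) and Rag expression, starts proliferation and carries the cell through DN4 towards the CD4+ CD8+ stage. Opa1 is a dynamin-related GTPase that fuses the mitochondrial inner membrane and shapes its cristae. The inner membrane holds the respiratory chain, 13 subunits of which are encoded by mitochondrial DNA (mtDNA).

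The libraries held 5926848 to 14148661 gene counts (median 10023044). The DN3 library of mouse WT05 stood apart: ribosomal RNA-like genes took 26.0% of its counts against 0.301% to 1.24% in the other 12 libraries, and 10 genes raised more than 20-fold in it took 20.4% (0.102% to 0.451% elsewhere), so that results it can move are also given without it. B-cell genes moved with stage in both genotypes. Of 18 B-cell markers, 17 were called higher at DN4 in each genotype, against 16.1% of all genes tested in WT;Lck-Cre+ and 12.8% in Opa1fl/fl;Lck-Cre+ mice; their summed level was 347 to 522 CPM (depth-scaled counts, with TMM normalisation) at DN3, 1272 to 5877 CPM in DN4 of the Opa1fl/fl;Lck-Cre+ mice and 1534 to 9733 CPM in DN4 of the WT;Lck-Cre+ mice. With limma-voom quality weights, 9 of the 18 were called higher in WT;Lck-Cre+ and 12 in Opa1fl/fl;Lck-Cre+ mice. None of the 18 was at 0 in a DN4 library, and their part in the stage changes was not tested. Of 14 tested NK and innate lymphoid markers, 12 were called higher at DN4 in WT;Lck-Cre+ and 11 in Opa1fl/fl;Lck-Cre+ mice; Klrb1c, Ncr1, Klrk1 and Klre1 were at 0 in every DN3 library. In sorted bulk cells, fewer cells of a type and less RNA per cell cannot be told apart.

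Opa1 was read over the whole gene. At DN3 it measured 88.6, 93.8 and 89.6 CPM in the Opa1fl/fl;Lck-Cre+ libraries and 111.8, 91.9 and 91.1 CPM in the WT;Lck-Cre+ libraries. At DN4 the values were 77.0, 81.4 and 87.9 CPM in Opa1fl/fl;Lck-Cre+ and 90.6, 93.8, 86.6 and 85.1 CPM in WT;Lck-Cre+. The genotypes overlapped at both stages, and the Opa1 interaction was -0.0039 (SE 0.14, edgeR adjusted p = 1.0). Whole-gene counts do not show the removal of single exons, so the genotype below is that of the labels, and the libraries are called KO-labelled and WT. The study reported reduced OPA1 protein by immunoblot of thymocyte lysates, which these counts do not measure.

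The stage changes of the genotypes agreed closely. Over 13356 genes, Pearson's r of the KO-labelled on the WT stage changes was 0.919 and Spearman's rho 0.766, and 77.8% of genes had the same sign. Genes are not independent replicates and the genes of one stage change share libraries, so these values describe the fit and carry no p; the stage changes themselves share no library. The slope was 0.927 when error was allowed on both axes (Deming), 0.858 by ordinary regression of KO-labelled on WT, and 1.016 from the inverse regression, so that whether the slope lay below or above 1 depended on where the error was placed. It also depended on the fit: the Deming slope was 1.04 with limma-voom quality weights and 0.799 with no filter on low counts. Without the DN3 library of WT05, r was 0.931, rho 0.815, the same-sign share 81.1% and the Deming slope 0.943 (13727 genes). Among genes with a mean of at least 10 CPM, r was 0.928 with all libraries and 0.957 without that library.

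Leaving out marker genes of other cell types lowered the agreement little. Without 212 marker, MHC class II and immunoglobulin genes r was 0.897 and the Deming slope 0.906; without the 10 genes raised in the DN3 library of WT05 they were 0.925 and 0.933. Among genes called in WT, 98.3% had the same sign in the KO-labelled mice, against 70.3% of genes not called in WT.

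**Figure D1:**
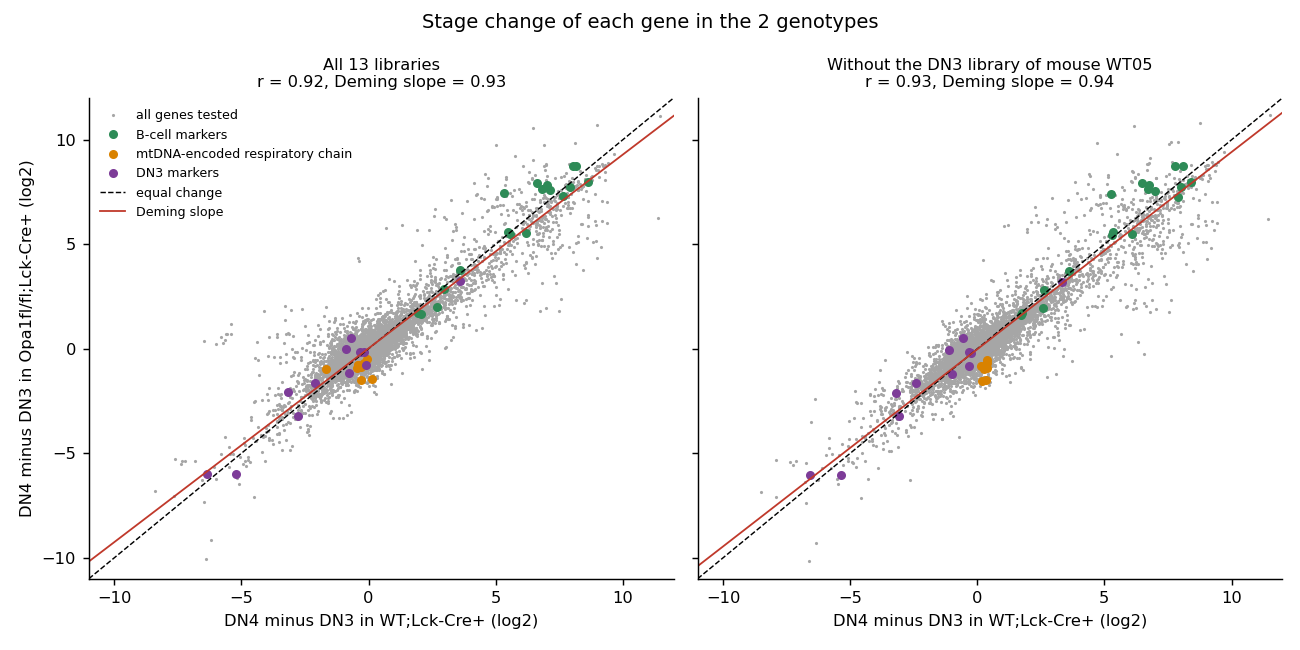
Each point is a gene, with its DN4 minus DN3 change (log2) in WT;Lck-Cre+ on the x axis and in Opa1fl/fl;Lck-Cre+ on the y axis; coloured points are named gene lists, the dashed line marks equal change and the solid line the Deming slope. The left panel uses all 13 libraries (r = 0.92, slope 0.93) and the right panel leaves out the DN3 library of WT05 (r = 0.93, slope 0.94); points lie along the dashed line in both.

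Most genes called in the KO-labelled mice were also called in WT, in the same direction. At an adjusted p under 0.05 (edgeR quasi-likelihood test, Benjamini-Hochberg over 13361 genes), 2153 genes rose and 1406 fell at DN4 in WT, which is 26.6% of those tested. In the KO-labelled mice 1708 rose and 1003 fell, or 20.3%. Both genotypes called 2221 genes, with the same sign in 2221 of 2221. The signs were opposite for 2 of 2141 shared genes without the DN4 library of WT48, and for 13 of 3305 with limma-voom quality weights. The 2221 genes were 62.4% of the WT calls and 81.9% of the KO-labelled calls. Of 1338 genes called in WT alone, 1278 had the same sign in the KO-labelled mice; of 490 called in KO-labelled mice alone, 465 had the same sign in WT.

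The counts moved with single libraries. Without the DN3 library of WT05, WT had 1992 genes up and 1489 down (25.3% of 13732) and the KO-labelled mice 1932 up and 1417 down (24.4%). Both genotypes then called 2456 genes, 0 of them in opposite directions, which was 70.6% of the WT calls and 73.3% of the KO-labelled calls. Without the DN4 library of KO45, the KO-labelled count was 1806. With and without the DN3 library of WT05, 2046 genes were called in both genotypes in both fits.

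The shared changes included the surface and receptor genes that define the step. Il2ra, the alpha chain of the IL-2 receptor and the CD25 used in the sort, measured 1249.5, 1337 and 819.7 CPM in KO-labelled DN3 and 727, 794 and 1292 CPM in WT DN3. In DN4 it was 24.1, 18.4 and 10.96 CPM in KO-labelled and 10.6, 10.2, 9.78 and 15.0 CPM in WT libraries. DN3 and DN4 did not overlap in either genotype, and the genotypes overlapped within each stage. It fell by 6.36 on the log2 scale in WT and by 5.99 in KO-labelled mice (interaction 0.38, SE 0.41). Since the gate was set on CD25, this change checks the sort and is no finding.

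Ptcra, whose product pairs with the beta chain, was at 112.0 to 144.3 CPM in KO-labelled DN3 and 76.1 to 157.4 CPM in WT DN3. It was at 32.6 to 52.1 CPM in KO-labelled DN4 and 17.9 to 36.9 CPM in WT DN4, so that stages separated and genotypes overlapped. It fell by 2.11 in WT and by 1.63 in KO-labelled mice, with an interaction of 0.48 (SE 0.39). Hes1, a NOTCH-induced repressor, fell by 2.77 in WT and by 3.21 in KO-labelled mice. Myc fell by 0.96 and by 0.94. Dtx1, another NOTCH target, had a stage change of -0.78 in WT (edgeR adjusted p = 0.0709) and fell by 1.17 in KO-labelled mice (adjusted p = 0.0221). It passed in WT without the DN3 library of WT05 (-0.98, edgeR adjusted p = 0.0445) and with mouse as a block, which pairs the stages of each animal (-0.69, adjusted p = 0.0077).

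Genes of the maturing thymocyte rose in both genotypes. The increases, all called by edgeR, were 2.42 in WT and 2.38 in KO-labelled mice for Egr1, a transcription factor induced by pre-TCR signals, and 1.15 and 1.06 for the co-stimulatory receptor Cd28. The co-receptor Cd8a rose by 4.39 and 4.38, and Cd4 by 4.16 and 5.26. The DN4 libraries differed widely among themselves in the co-receptors: Cd4 was at 671 CPM in KO45 but 64.2 in KO49 and 136.7 in KO51, and at 44.3 (WT05), 248.9 (WT40), 47.1 (WT46) and 18.6 CPM (WT48) in WT. KO45 was highest and WT48 lowest, and the interaction for Cd4 had an SE of 1.36. Trac, the T cell receptor alpha constant region that is transcribed once the alpha locus opens, rose by 4.85 in WT and 3.85 in KO-labelled mice. Il7r, the IL-7 receptor alpha chain, fell by 0.77 in WT and by 1.40 in KO-labelled mice. Apart from Dtx1, the genes of these paragraphs were called in both genotypes with and without the DN3 library of WT05.

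The largest shared falls were in genes nearly silent at DN4. By mean stage change of both genotypes, the 6 were Gm5111, Rab38, Nckap5, Gm16329, Khdc1a and Tcte2. Khdc1a was at 19.6 to 136.5 CPM over the 6 DN3 libraries and 0.2 to 0.8 CPM over the 7 DN4 libraries. The 6 largest shared rises were March1, Pxdc1, Igkv1-110, Igkj4, Stac2 and Nrp2. March1, a ubiquitin ligase of antigen-presenting cells that targets MHC class II, had no count in any DN3 library and 50 to 697 counts in the DN4 libraries, and Igkv1-110 and Igkj4 are immunoglobulin kappa segments. Nrp2, a semaphorin co-receptor, likewise went from 0 counts in every DN3 library to 44 to 114 counts at DN4. March1 was lowest in DN4 of KO51 and highest in DN4 of WT48, the DN4 libraries with the lowest and the highest summed B-cell markers; Nrp2 had 55 counts in that WT48 library, near its lowest.

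Mice of different genotype agreed about as well as mice of the same genotype. For the 6 mice with both stages, the stage change of each gene was taken within the mouse and correlated between mice over 13361 genes. The 9 pairs of a KO-labelled and a WT mouse had an r of 0.694 to 0.902 (median 0.815). The 3 KO-labelled pairs had 0.802 to 0.858 (median 0.824), and the 3 WT pairs 0.735 to 0.802 (median 0.775). The ranges overlapped, and the highest r of any pair was between genotypes. Leaving out WT05, the 6 mixed pairs had a median of 0.829 and the 4 same-genotype pairs a median of 0.813. Among genes with a mean of at least 10 CPM, the mixed pairs had the lower median. It was 0.877 against 0.883 with 6 mice, and 0.893 against 0.908 without WT05.

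The size of the stage change was also compared per mouse, as the slope of its changes on the mean of the other 5 mice. KO-labelled mice had slopes of 0.933 (KO45), 1.02 (KO49) and 0.708 (KO51). WT mice had slopes of 1.10 (WT05), 0.821 (WT46) and 1.14 (WT48). KO51 was lowest and WT48 highest, with KO49 and KO45 above WT46. The means were 0.886 ± 0.161 (SD, n = 3) and 1.02 ± 0.175 (SD, n = 3), a difference of -0.134 (exact two-sided permutation test p = 0.4, adjusted over 2 tests 0.4). With 3 mice against 3 the smallest p this exact test allows is 0.1. Without WT05 the difference was -0.0883 (exact permutation p = 0.8, smallest possible 0.2).

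**Figure D2:**
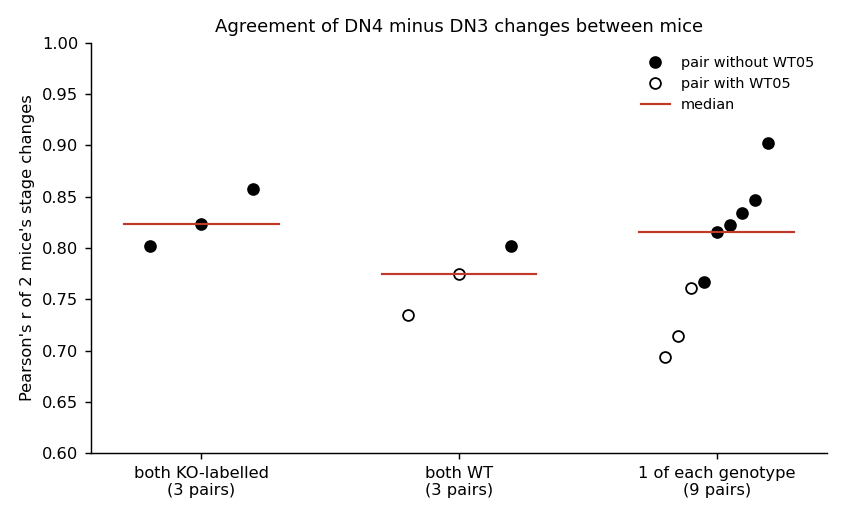
Each point is a pair of mice, and the y axis is Pearson's r between their DN4 minus DN3 changes over all genes tested; open points are pairs that include WT05 and red lines are medians. The mixed pairs span 0.694 to 0.902 and cover the range of both same-genotype groups.

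No gene passed the test of the interaction. With all 13 libraries 0 of 13361 genes (0%) had an adjusted edgeR p under 0.05, and without the DN3 library of WT05 0 of 13732 (0%). The smallest adjusted p was 1.0 with all libraries and 0.802 without that one. At an unadjusted edgeR p under 0.05 there were 480 genes (3.59%), 211 above 0 and 269 below. Without the DN3 library of WT05 there were 506 (3.68%), 159 above and 347 below, with 257 genes in both sets. The Wald test of DESeq2 on the same 13 libraries called 2 genes, Gnpnat1 and Gm28437 (adjusted p = 0.0246 and 0.0388), and limma-voom with sample quality weights called 0. Of all 13361 genes, 6966 (52.1%) had an interaction below 0, and 7073 of 13732 (51.5%) without the DN3 library of WT05.

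How large a difference could have gone unseen depended on expression. The 95% interval of the interaction had a median half-width of 0.636 (log2), and lay wholly within a 2-fold change in either direction for 7686 genes (57.5%). In the lowest quartile of expression (0.531 to 6.19 CPM) the median half-width was 1.64 and 3.02% of intervals lay within that bound. In the highest quartile (from 76.9 CPM) it was 0.451, with 86.1% within. Of the 4049 genes called in either genotype, 1842 (45.5%) had an interval within the 2-fold bound; for the others a difference of 2-fold or more was not excluded by the interval.

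The genes with the smallest p values for the interaction were examined by mouse. Gnpnat1, the acetyltransferase of the hexosamine pathway that makes UDP-N-acetylglucosamine (chr14:45376334-45404913, mm10), measured 18.3, 18.8 and 18.9 CPM in KO-labelled DN3 and 8.2, 12.7 and 13.1 CPM in WT DN3. At DN4 it was 12.7, 15.7 and 12.8 CPM in KO-labelled libraries and 26.1, 21.1, 23.4 and 17.2 CPM in WT libraries. KO-labelled libraries were above all WT libraries at DN3 and below all of them at DN4. It rose by 0.93 in WT (edgeR adjusted p = 0.00311) and had a stage change of -0.44 in KO-labelled mice (adjusted p = 0.134), with an interaction of -1.37 (SE 0.27, edgeR adjusted p = 1.0; -1.19 without the DN3 library of WT05). The change was below 0 in 3 of 3 KO-labelled mice and above 0 in 3 of 3 WT mice. With the mouse block and no mouse WT05, the WT change of Gnpnat1 was 0.61 and did not pass (edgeR adjusted p = 0.0644). Gnpda2, a deaminase acting on glucosamine-6-phosphate in the same pathway, had an interaction of -0.81 (SE 0.21; -0.77 without that library), with stage changes of -0.44 to 0.04 in the KO-labelled and 0.48 to 0.83 in the WT mice.

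Glipr2, a Golgi-associated protein, rose in both genotypes. It went from 10.7, 13.6 and 10.4 CPM at DN3 to 27.4, 28.3 and 21.02 CPM at DN4 in KO45, KO49 and KO51. In WT it went from 5.6, 9.3 and 7.7 CPM to 40.7, 50.9, 43.9 and 33.3 CPM. KO-labelled libraries lay above WT at DN3 and below WT at DN4. The rise was 2.45 in WT and 1.15 in KO-labelled mice, an interaction of -1.297 (SE 0.29; -1.14 without the DN3 library of WT05). Prr5l, a protein bound to the mTORC2 kinase complex, rose by 5.28 in WT and by 3.54 in KO-labelled mice (interaction -1.75, SE 0.43; -1.696 without that library). Ndfip1, an adaptor of Nedd4-family ubiquitin ligases, rose by 1.29 and by 0.53 (interaction -0.76, SE 0.20; -0.61 without it). Dhrs7, a short-chain dehydrogenase, rose by 2.66 in WT and had a stage change of 0.83 in KO-labelled mice (interaction -1.84, SE 0.44; -1.71 without that library), at 0.9 to 9.1 CPM over all libraries. With the mouse block the Dhrs7 change in KO-labelled mice was 0.81 and passed (edgeR adjusted p = 0.0446).

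Ptpn14, a tyrosine phosphatase, went the other way. It was at 12.7, 17.4 and 14.5 CPM in KO-labelled DN3 and 30.1, 17.3 and 22.2 CPM in WT DN3, then at 39.7, 30.6 and 22.5 CPM in KO-labelled DN4 and 21.2, 21.7, 16.3 and 18.5 CPM in WT DN4. KO-labelled DN4 libraries lay above all WT DN4 libraries, while at DN3 KO49 and WT46 were level. The gene rose by 1.06 in KO-labelled mice and had a stage change of -0.24 in WT (interaction 1.304, SE 0.33; 1.11 without the DN3 library of WT05). The long noncoding RNA gene Gm26669 (interaction -2.83) was below 5 CPM in every library. Without the DN3 library of WT05, Arl5a, an ARF-like GTPase, and Heca joined the 10 smallest p values, at -0.63 and -0.60 (-0.43 and -0.49 with it). Arl5a then rose by 0.40 in WT (edgeR adjusted p = 0.0107), where its change with all libraries was 0.23 (adjusted p = 0.267). With the mouse block and no mouse WT05, its WT change was 0.33 and did not pass (edgeR adjusted p = 0.0854).

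Each of these genes was taken for its small p, and none passed the adjusted test in edgeR; Gnpnat1 passed in DESeq2. The stage changes of the 3 KO-labelled and 3 WT mice did not overlap for 1463 of 13361 genes (10.9%), with the KO-labelled mice above for 679 and below for 784. If genotype made no difference, 3 mice against 3 would separate fully in either direction with a probability of 0.1. The share of 10.9% was near that.

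**Figure D3:**
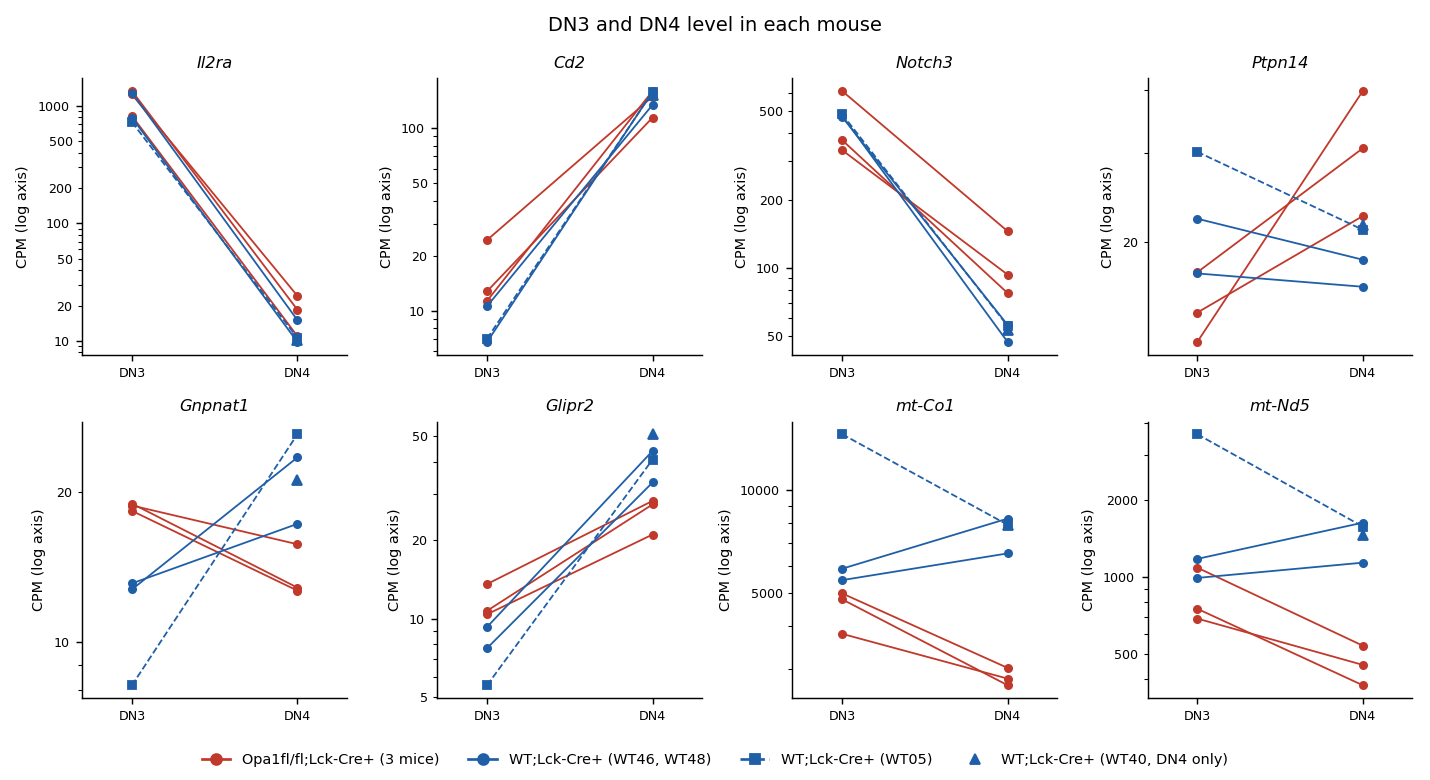
CPM (log axis) of 8 genes at DN3 and DN4, with a line joining the libraries of each mouse; red is Opa1fl/fl;Lck-Cre+, blue WT;Lck-Cre+, dashed blue WT05, and the triangle WT40, which has DN4 only. Lines are parallel for Il2ra, cross for Gnpnat1 and Ptpn14, and fall less steeply in red for Notch3; for mt-Co1 and mt-Nd5 the DN3 point of WT05 lies far above all others.

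Among the NOTCH receptors, Notch3 and Notch1 fell less in the KO-labelled mice, with no adjusted p under the threshold for the difference. Notch3, the receptor abundant at DN3 (chr17:32120820-32166852), was at 613, 371 and 334 CPM in KO-labelled DN3 and 483, 476 and 470.0 CPM in WT DN3. At DN4 it was at 145.7, 77.3 and 93.4 CPM in KO-labelled and 55.2, 53.2, 46.9 and 55.8 CPM in WT libraries. The genotypes overlapped at DN3, and at DN4 all KO-labelled libraries were higher. Notch3 fell by 3.17 in WT and by 2.06 in KO-labelled mice, an interaction of 1.12 (SE 0.32; 1.11 without the DN3 library of WT05). With mouse as a block it was 1.13 and had the smallest p of all genes (edgeR adjusted p = 0.901). Notch1 fell by 2.10 in WT and by 1.39 in KO-labelled mice (interaction 0.70, SE 0.26; 0.47 without that library), and Lfng, the glycosyltransferase that modifies NOTCH receptors, rose by 1.45 and by 0.73 (interaction -0.72, SE 0.31; -0.52 without it, -0.22 with quality weights). Notch1 and Lfng were named after their values were seen.

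The list of 21 genes for NOTCH receptors, their processing and cofactors includes Notch3, Notch1 and Lfng. Of the 21, 12 had an interaction above 0 and 9 below (median 0.06), 3 of them at an unadjusted edgeR p under 0.05, as were 3.59% of all genes. When the DN3 library of WT05 was left out, 7 were above 0 and 14 below (median -0.10). Of 15 NOTCH target genes tested, among them Notch3, Notch1, Il2ra and Ptcra, 8 fell in WT and 7 fell in KO-labelled mice, beside 10.5% and 7.51% of all genes tested; 10 had an interaction above 0 (median 0.15; 0.18 without the DN3 library of WT05) and 0 passed the adjusted test.

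Cd2, an adhesion receptor of T cells, had an interaction below 0, with the genotypes apart at DN3 and not at DN4. It was at 11.3, 24.4 and 12.8 CPM in KO-labelled DN3 and 7.02, 6.73 and 10.6 CPM in WT DN3, with no overlap. At DN4 it was at 159.7, 148.8 and 114.2 CPM in KO-labelled and 157.7, 152.3, 158.3 and 134.2 CPM in WT libraries, which overlapped. The rise was 4.196 in WT and 3.14 in KO-labelled mice, an interaction of -1.05 (SE 0.36; -0.97 without the DN3 library of WT05).

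Rag1, which encodes a subunit of the V(D)J recombinase, passed the stage test in neither genotype, with a stage change of -0.67 in WT and 0.53 in KO-labelled mice (interaction 1.201, SE 0.58; 1.04 without the DN3 library of WT05). With the mouse block it fell by 1.09 in WT (edgeR adjusted p = 0.0193), while the change in KO-labelled mice was 0.36 (adjusted p = 0.413); the WT call was lost with the block and no mouse WT05 (-1.06, adjusted p = 0.0574). With limma-voom quality weights the Rag1 interaction was 0.29 (SE 0.46). Its change was 1.31 in KO45, -0.44 in KO49 and 0.21 in KO51, against -1.24 in WT05, -0.62 in WT46 and -1.43 in WT48. The genotypes did not overlap, but KO45, the mouse with the most Cd4 at DN4, set the upper end. Over 12 V(D)J recombination genes the median interaction was 0.29 (0.20 without the DN3 library of WT05), with 10 above 0 and none passing the adjusted test.

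The mtDNA-encoded genes had the median interaction farthest from 0 of the 47 lists once the DN3 library of WT05 was left out, and 0 genes of the list passed the adjusted test in either fit. These genes took 1.06%, 0.833% and 1.17% of counts in KO-labelled DN3 and 1.94%, 1.41% and 1.24% in WT DN3 (WT05, WT46, WT48). At DN4 they took 0.532%, 0.563% and 0.681% in KO-labelled libraries and 1.66%, 1.68%, 1.79% and 1.29% in WT libraries (WT05, WT40, WT46, WT48). KO-labelled libraries were below all WT libraries at each stage, and the gap was wider at DN4. The share holds only the counts assigned to these genes. For 5 of the 13, nearly all 50-base windows also occur in other transcripts, and these genes had almost no counts.

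Within mice, the log2 change of the mtDNA-encoded share was -0.99, -0.56 and -0.78 in KO45, KO49 and KO51. It was -0.23, 0.35 and 0.06 in WT05, WT46 and WT48. The share thus dropped in 3 of 3 KO-labelled mice by more than in any WT mouse. The means were -0.780 ± 0.213 (SD, n = 3) and 0.0588 ± 0.289 (SD, n = 3), a difference of -0.84 (two-sided exact permutation p = 0.1, adjusted over 2 tests 0.2; 3 mice against 3 allow no lower p). When the ribosomal RNA-like counts were left out of the total, the change in WT05 was -0.66 and overlapped the KO-labelled mice, with a difference of -0.69 (exact permutation p = 0.2). Without WT05 the difference was -0.98 (exact permutation p = 0.2, the smallest 3 against 2 allows).

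The gene level showed the same dependence. mt-Co1, the catalytic subunit of cytochrome c oxidase, was at 4796, 3801 and 4991 CPM in KO-labelled DN3 and 14579.6, 5893 and 5457 CPM in WT DN3. At DN4 it was at 2689, 2811 and 3022 CPM in KO-labelled libraries and 7920, 7898, 8260 and 6534 CPM in WT libraries, written here for WT05, WT40, WT46 and WT48. The DN3 library of WT05 was the highest of all 13. The mt-Co1 interaction was -0.50 (SE 0.42, edgeR adjusted p = 1.0) with it and -1.09 (SE 0.19, adjusted p = 0.802) without it. For mt-Nd5, a proton-pumping subunit of complex I, the values were -0.47 (SE 0.53) and -1.28 (SE 0.29). Of the 10 mtDNA-encoded genes tested, 9 had an interaction below 0 and 0 an unadjusted p under 0.05 with all libraries. Without the DN3 library of WT05 these were 10 and 7. Among these 10, mt-Co2, mt-Co3 and mt-Atp6 were near the floor, at 0.2 to 5.3 CPM. Their interactions with all libraries were -0.44, -1.58 and -1.19. Over all genes, 52.1% were below 0 and 3.59% had such a p with all libraries, and 51.5% and 3.68% without that one. The median of the list was -0.47 with all libraries (-0.88 when scaled by library totals) and -1.18 without that one, beside -0.02 and -0.01 over all genes tested.

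**Figure D4:**
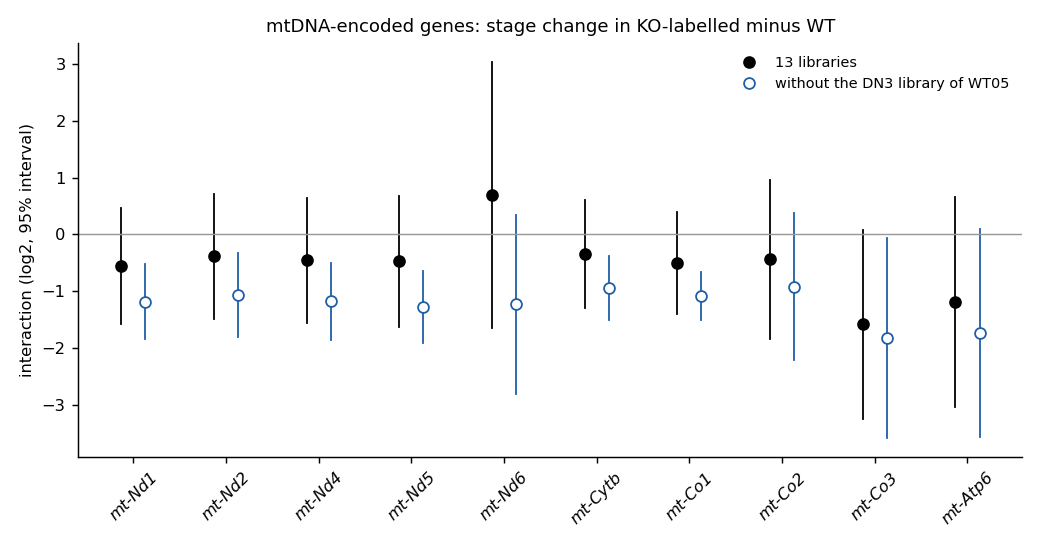
Interaction (log2, with its 95% interval) of the 10 mtDNA-encoded genes tested, with all 13 libraries (filled) and without the DN3 library of WT05 (open). The values for mt-Co1 move from -0.50 to -1.09, and 10 of 10 open points lie below 0. Those of mt-Co2, mt-Co3 and mt-Atp6 rest on low counts.

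Of the 13 mtDNA-encoded genes, 6 had almost no counts, and the sequence of 5 of these is also found elsewhere in the genome. In the GENCODE M21 transcripts (GRCm38), every 50-base window of mt-Co2 occurs in a transcript outside the mitochondrial genome, as do 99.9% of the windows of mt-Co3, 99.5% of mt-Atp6, 98.8% of mt-Nd4l and 97.99% of mt-Nd3. These 5 genes were at 0 to 5.27 CPM in every library. The sixth, mt-Atp8, was at 0 to 1.46 CPM although none of its windows occurs elsewhere. For mt-Nd4 the share was 62.2%, for mt-Co1 51.1%, for mt-Nd2 8.19% and for mt-Nd5 7.61%, while it was 0% for mt-Nd1, mt-Nd6 and mt-Cytb. On chromosome 1, 4 nuclear copies were among the genes with the smallest interaction p values, and the first 60 bases of the run that each shares exactly with its mitochondrial gene are printed, since a read inside the run matches both. The runs are 783 bases in Gm28437 (chr1:24613189-24613971), 678 in Gm10925 (chr1:24613974-24614651), 479 in Gm29216 (chr1:24615706-24616197) and 681 in Gm28661 (chr1:24614885-24615565), all annotated on the minus strand.
Gm28437 and mt-Co3: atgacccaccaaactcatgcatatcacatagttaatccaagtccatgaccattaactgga
Gm10925 and mt-Atp6: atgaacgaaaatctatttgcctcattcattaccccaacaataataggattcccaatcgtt
Gm29216 and mt-Co1: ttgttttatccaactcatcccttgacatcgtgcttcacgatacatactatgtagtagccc
Gm28661 and mt-Co2: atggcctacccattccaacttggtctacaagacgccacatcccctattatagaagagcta
No base is marked in capitals, as the 60 bases match throughout.

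Counts on these copies are therefore uncertain as to their source. Gm28437 was at 15.5, 21.2 and 21.6 CPM in KO-labelled DN3 and 32.8, 28.6 and 29.8 CPM in WT DN3. At DN4 it was at 10.1, 10.1 and 10.2 CPM in KO-labelled and 43.4, 41.4, 38.9 and 26.8 CPM in WT libraries, with no overlap at either stage. Its interaction was -1.25 (SE 0.26), and it is a member of the pair that DESeq2 called. The interactions of Gm10925, Gm29216 and Gm28661 were -1.39, -0.85 and -0.91 with all libraries. Without the DN3 library of WT05 they were -1.61, -1.22 and -1.196, and that of Gm28437 was -1.28.

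The nuclear-encoded mitochondrial and metabolic lists had interactions near 0. The median was -0.04 for 36 complex I subunits, -0.10 for 42 subunits of complexes II to V, -0.02 for 77 mitochondrial ribosomal proteins and -0.07 for 28 genes of mtDNA maintenance and transcription. It was -0.06 for 20 genes of mitochondrial fusion, fission and cristae, -0.08 for 21 glycolytic enzymes and -0.01 for 18 genes of the integrated stress response, the ATF4 programme that mitochondrial defects can induce. No member of these lists passed the adjusted interaction test. The direction within several lists turned when the DN3 library of WT05 was left out: complex I went from 21 of 36 below 0 to 8 of 36 (median 0.09), and mitochondrial ribosomal proteins from 46 of 77 below 0 to 13 of 77 (median 0.08). The medians were then 0.02 for complexes II to V, -0.0015 for mtDNA maintenance, -0.03 for fusion, fission and cristae, -0.04 for glycolysis and 0.02 for the stress response. Asns, an ATF4 target that makes asparagine, had an interaction of 0.95 with an SE of 0.81, and Cox6a2, a tissue-restricted subunit of cytochrome c oxidase, 1.58 with an SE of 1.205.

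Across the 38 pathway lists, the median stage changes had the same sign in both genotypes for 37, and 35 had a median interaction within 0.3 of 0. Both numbers were 36 without the DN3 library of WT05: the mtDNA-encoded list then had medians of opposite sign (0.28 in WT, -0.90 in KO-labelled mice), as did the pre-TCR and CD3 chains (-0.10 and 0.15). The list medians of the genotypes correlated at r = 0.986 over 38 lists, which share genes and libraries. Over all genes, 16.1% rose and 10.5% fell in WT, and 12.8% rose and 7.51% fell in KO-labelled mice. Of 23 genes of the pre-TCR signal response, 18 rose in WT and 17 in KO-labelled mice (median stage changes 1.82 and 1.44, interaction -0.20). Of 20 co-receptors and surface molecules, 15 rose in WT and 14 in KO-labelled mice (median interaction -0.17; -0.14 without the DN3 library of WT05). Of 33 genes of Myc and ribosome biogenesis, 17 fell in WT and 8 in KO-labelled mice, with medians of -0.48 and -0.49; without the DN3 library of WT05, 10 fell in each.

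With all libraries, the pathway lists farthest below 0 were the Gimap GTPases, the MHC class II genes and the mtDNA-encoded genes. The 8 Gimap GTPases, which act in lymphocyte survival, rose in WT in 8 of 8 cases and in KO-labelled mice in 6 (medians 2.83 and 2.06; 6 in each genotype without the DN3 library of WT05), and the interaction was below 0 in 8 of 8, with a median of -0.77 (-0.58 without the DN3 library of WT05) and 0 at an unadjusted edgeR p under 0.05. The summed Gimap level at DN4 was lowest in KO51 (694 CPM) and highest in WT48 (1834 CPM) and WT05 (1470.3 CPM), where the summed B-cell markers were at 1272, 9733 and 5160.5 CPM. The order over all DN4 libraries was not the same for both: Gimap was at 1184 CPM in KO49, 1154 in KO45, 1039 in WT40 and 1009 in WT46, and the B-cell markers at 5877, 3627, 1534 and 1907 CPM; the part of the B-cell markers in the Gimap change was not tested. Their per-mouse medians overlapped, at 1.57 to 2.51 in the KO-labelled mice and 1.88 (WT46) to 4.2 (WT05) in the WT mice. Gimap8 rose by 4.55 in WT and by 3.65 in KO-labelled mice (interaction -0.90, SE 0.45; -0.30 with quality weights), and Gimap5, required for survival of peripheral T cells, by 2.21 and by 1.52 (-0.69, SE 0.39; -0.0069 with quality weights). Over 9 MHC class II genes the median interaction was -0.48 with all libraries and -0.17 without the DN3 library of WT05; Cd74, the invariant chain, rose by 8.25 in WT and by 7.60 in KO-labelled mice, beside the rise of the B-cell markers. Weighting the libraries by quality turned the sign of both lists, to 0.07 for Gimap and 1.14 for MHC class II. The 10 tested gamma delta T cell markers had a median interaction of -0.70 (-0.63 without the DN3 library of WT05, 0.01 with quality weights). Among them Maf had an interaction of -1.50 (SE 0.59; -1.41 without the DN3 library of WT05, -0.60 with quality weights) and Etv5 of -1.41 (SE 0.46; -1.304 and -0.63), and both were named after their values were seen.

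Apart from the ribosomal RNA-like genes, with a median of 6.23 over all libraries and -0.59 when the WT05 DN3 library was left out, the lists farthest above 0 were V(D)J recombination, mitosis and the genes of the immature single positive and double positive stages (0.11, 0.03 and -0.04 when scaled by library totals; 0.05, -0.11 and -0.26 with quality weights). Of 35 mitosis genes, 31 had an interaction above 0 (median 0.28), but without the DN3 library of WT05 the median was 0.02. Mki67, a marker of cycling cells, was at 2051 CPM in that library and at 410 to 644 CPM in the other 5 DN3 libraries. Its stage change passed the test in neither genotype, with all libraries or without that one. With the mouse block and no mouse WT05, Mki67 rose by 0.56 in KO-labelled mice (edgeR adjusted p = 0.0333). Its WT change was then 0.17 (edgeR adjusted p = 0.595). The 18 genes of the later stages had a median of 0.20 (0.14 without that library), with 5 genes whose KO-labelled mice all lay above the WT mice, as 5.08% of all genes did; Arpp21 fell by 1.38 in WT and had a stage change of -0.53 in KO-labelled mice (interaction 0.85, SE 0.36; 0.40 with quality weights; with the mouse block it fell by 0.55 in KO-labelled mice, edgeR adjusted p = 0.0469), and Nrgn rose by 2.96 and by 2.12 (interaction -0.83, SE 0.37). Of 76 cytosolic ribosomal protein genes, 75 had an interaction below 0, with a median of -0.11, which became 0.05 without the DN3 library of WT05.

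**Figure D5:**
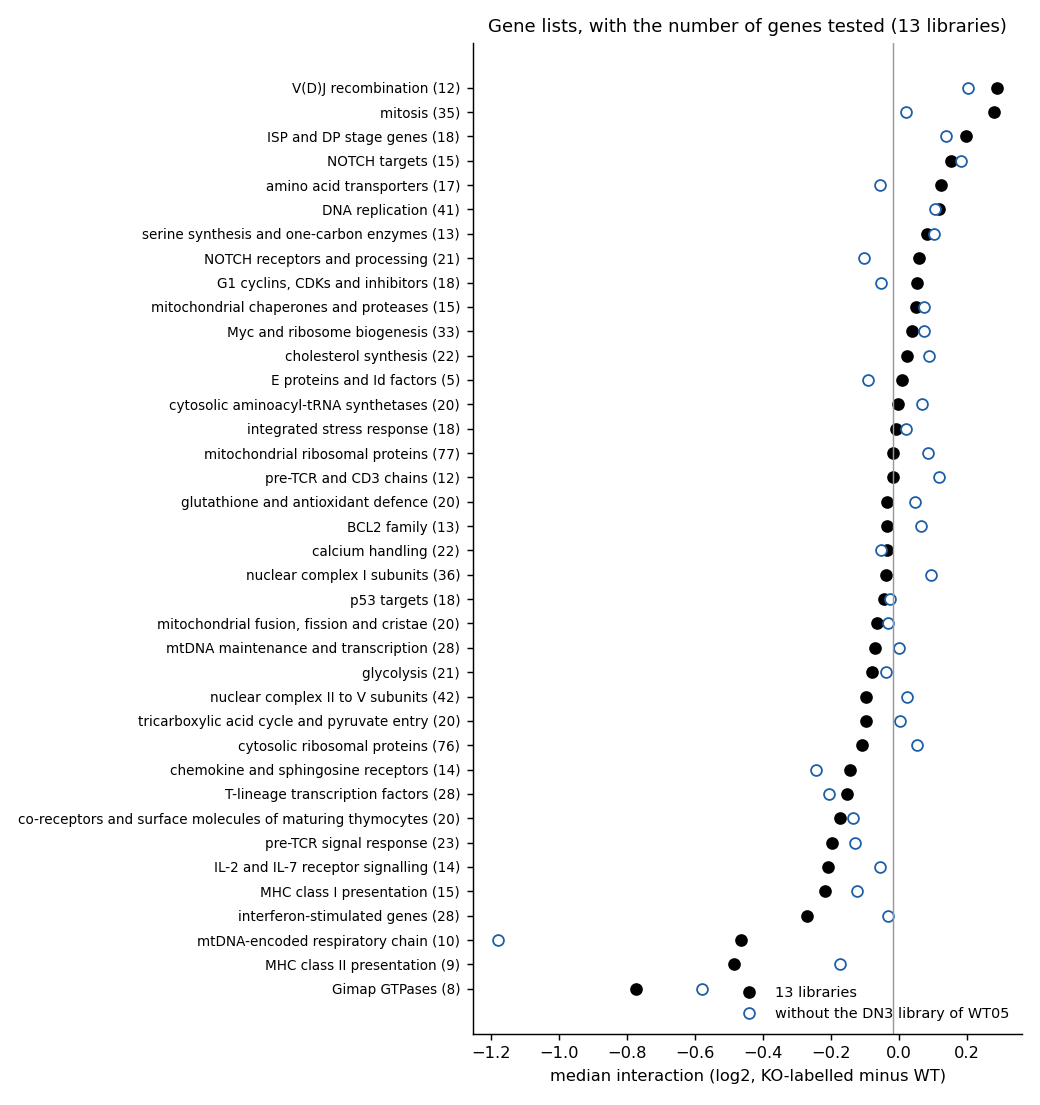
Median interaction (log2) of each gene list, with the number of genes tested in brackets, for all 13 libraries (filled) and without the DN3 library of WT05 (open); the grey line is the median over all genes. Most lists lie within 0.3 of the line, and the mtDNA-encoded list moves from -0.47 to -1.18.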

How the data were processed

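RNA was measured by stranded mRNA sequencing of sorted thymocytes. Per the labels and the study's methods, the authors aligned reads with STAR to mm10 and counted them with featureCounts; the deposited raw counts per gene were used, with 47937 genes, of which 39192 IDs matched GENCODE M21 with their version and 47310 without it. The strand setting of the counting is not given in the sources used here. Columns were matched to samples by name. Genes were filtered with filterByExpr (minimum count 10) and fitted with group means in edgeR 4.0.16 (R 4.3.3; TMM, quasi-likelihood F test, Benjamini-Hochberg adjustment); 95% intervals come from its standard errors. Slopes used 5 fewer genes, whose standard error could not be estimated. Alternatives used DESeq2 1.42.0 and limma 3.58.1. Within-mouse changes of single genes, and the non-overlap counts taken from them, added 0.5 CPM. Correlations between mice and per-mouse slopes used log2 CPM with a prior count of 2 (a small count added before the log). The fit was tested on simulated data. No 2 libraries agreed within counting noise (lowest chi-square over degrees of freedom 6.19). Stages of a mouse share an animal: the deviations from group means of its DN3 and DN4 libraries correlated at 0.124 to 0.460. The genes and 47 gene lists were chosen with earlier results of these data known. Genes were named by these rules: the 10 smallest interaction p values with and without the DN3 library of WT05, the 6 largest shared changes in each direction, the mtDNA-encoded genes, 3 genes from each of the 6 most extreme pathway lists, and fixed stage markers with Opa1, Asns and Cox6a2.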

Additional observations from a re-analysis of the deposited data

Results flagged for a closer look

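The change from DN3 to DN4 went below 0 in every KO-labelled mouse and above 0 in every WT mouse for Gnpnat1 (interaction -1.37) and Arl5a (-0.43), and the other way round for Ptpn14 (1.304). For Arl5a the change in WT05 was only 0.0095, from 59.4 to 59.8 CPM. With DESeq2's Wald test, Gnpnat1 (-1.35) and Gm28437 (-1.25) passed the adjusted test of the interaction, and in edgeR neither did. Within the 4 WT DN4 libraries, 46 genes were checked for a library far from the other 3, and 6 had such a library. Chance alone gives about 1 in 20, but genes of a library are not independent, so the number cannot be read against that share. WT48 was the far library for mt-Nd2 (793 CPM), mt-Co2 (1.83 CPM), Il2ra (15.0 CPM) and Cd28 (113.1 CPM), WT40 for Cd4 (248.9 CPM) and WT05 for Myc (151.1 CPM).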

How the results depend on the processing

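The interaction called 0 genes under every alternative except DESeq2's Wald test, which called 2. The mouse (replicate) block, over the 6 paired mice and without the DN4 library of WT40, gave 0 interaction calls, 685 genes at an unadjusted p under 0.05, 3752 WT and 3328 KO-labelled calls, r = 0.924 and a slope of 0.915. With the block and without mouse WT05 there were 3130 WT and 4110 KO-labelled calls, so that the order of the genotypes turned. Leaving out single libraries gave 1806 to 3349 KO-labelled calls, 2728 to 3660 WT calls, an r of 0.884 to 0.931, a slope of 0.862 to 0.978, and 286 (without DN4 of WT05) to 783 (without DN3 of WT48) interaction genes at an unadjusted p under 0.05. That number was 303 with library totals, 782 with no filter and 1321 with quality weights. KO-labelled calls were 1712 with library totals, 1752 with at least 10 counts in every library and 4563 with quality weights. The correlation was 0.655 with no filter, 0.861 with at least 10 counts in every library and 0.766 as Spearman's rho. Library totals moved the median interaction of all genes to -0.20. The median of the mtDNA-encoded list was -1.03 with the block and no mouse WT05, -1.21 with quality weights, and -1.18 to -0.16 when single libraries were left out. The WT stage change of mt-Co1 was -0.18, ranged from -0.42 to 0.39 when single libraries were left out (0.39 without DN3 of WT05) and was 0.39 with quality weights; that of mt-Nd6 was -1.67, -2.16 to 0.25 (0.25 without DN3 of WT05) and 0.29, and its interaction from 0.70 to -0.89 with the block and no mouse WT05 and to -1.68 with quality weights. The cause was not tested. At low counts the intervals of the interaction were wide, with 3.02% within a 2-fold change in the lowest quartile of expression. Leaving out the marker genes and the genes raised in the DN3 library of WT05 were choices made after seeing the data.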
